A study of Mus musculus with 27 samples.

Results

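Glutathione synthesis and cystine uptake were read from 6 genes, *Slc7a11*, *Gclc*, *Gclm*, *Gss*, *Gsr* and *Ggt1*, out of 28427 genes on the array. The genes were chosen by name, and all probes that carried one of these names were used, 12 of 41174. *Gclc*, *Gss* and *Ggt1* had 1 probe each, *Gclm* had 2, *Gsr* had 3 and *Slc7a11* had 4. The microarrays measured RNA of mouse esophagus on 27 arrays, 3 biological replicates in each of 9 groups. Each sample was the RNA of an individual esophagus. Whole wild-type C57BL/6J esophagi represented the metaplasia phase, taken at E11.5 and E15.5 before birth, at P0, and at P7. Whole esophagi at P7 also came from mice without Nrf2 (*Nrf2-/-*), without Keap1 (*Keap1-/-*) and without both (*Nrf2-/-Keap1-/-*), all on the C57BL/6J background, and wild-type and *Nrf2-/-* mice gave esophageal epithelium at 8 weeks. The mutants were germline knockouts, so the loss was not restricted to the epithelium or to the esophagus. Adult *Keap1-/-* epithelium was not analysed here. Adult samples differed from P7 samples in both age and dissected tissue, and these cannot be told apart. Every sample was labelled with Cy5 and hybridised against one reference RNA, made from mouse cell lines, in Cy3. The level of a gene is therefore given as the log2 ratio of Cy5 to Cy3: 0 means as bright as the reference, and levels of different genes are not compared with each other.

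Glutathione is a tripeptide of glutamate, cysteine and glycine that cells use to reduce peroxides and to conjugate electrophiles. Slc7a11 is the light chain of the transporter that brings in cystine in exchange for glutamate, Gclc and Gclm are the catalytic and modifier subunits of the ligase that joins glutamate to cysteine, and Gss adds glycine. Gsr returns oxidised glutathione to its reduced form with NADPH, and Ggt1, on the cell surface, splits extracellular glutathione so that its amino acids can be taken up again. Nrf2 (gene symbol *Nfe2l2*) is a transcription factor that binds antioxidant response elements with small Maf proteins, and Keap1 is the adaptor that keeps Nrf2 low by marking it for degradation. *Slc7a11* is also known as a target of Atf4, which acts through amino acid response elements.

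Promoter sequence was held for 4 of the 6 genes, *Slc7a11*, *Gclm*, *Gss* and *Ggt1*, and none for *Gclc* and *Gsr*. The 250 bases before the start of *Slc7a11* and *Gclm* are shown because they hold the letters of these elements. They are RefSeq sequences of GRCm38.p6, at chr3:50443614-50443863 on the minus strand for *Slc7a11* and chr3:122245307-122245556 on the plus strand for *Gclm*. Capitals mark matches, on either strand, of TGATGNAA (the letters searched for the amino acid response element) in *Slc7a11* and of TGACNNNGC (the antioxidant response element core) in *Gclm*, written 5′ to 3′ as the gene's strand reads.
*Slc7a11*: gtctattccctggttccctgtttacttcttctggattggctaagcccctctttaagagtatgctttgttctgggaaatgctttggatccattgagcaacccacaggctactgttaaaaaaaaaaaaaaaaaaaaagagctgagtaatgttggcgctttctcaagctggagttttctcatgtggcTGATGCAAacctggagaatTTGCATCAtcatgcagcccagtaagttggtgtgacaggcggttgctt
*Gclm*: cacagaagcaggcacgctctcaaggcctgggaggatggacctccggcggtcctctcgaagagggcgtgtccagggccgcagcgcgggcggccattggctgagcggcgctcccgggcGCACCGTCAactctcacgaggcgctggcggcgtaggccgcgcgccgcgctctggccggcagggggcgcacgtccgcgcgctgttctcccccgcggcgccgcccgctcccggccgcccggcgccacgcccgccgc
*Slc7a11* held TGATGNAA at 2 places, on the forward strand 66 bases and on the reverse strand 47 bases before the start, and no match of TGACNNNGC. *Gclm* held TGACNNNGC once, on the reverse strand 134 bases before the start. *Gss* held neither, and of 4 *Ggt1* starts 2 held TGACNNNGC. Of all 32851 promoters of that length, 10.2% held TGACNNNGC and 3.45% held TGATGNAA. A match of letters is a description and not a binding site.

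The probes are 60 bases long. Those of *Gclm*, *Gss* and *Ggt1* shown here span a splice junction, so they read spliced RNA. In the mm9 build, as the files give positions, they lie at chr3:121962174-121964809 on the plus strand for *Gclm*, chr2:155389432-155390531 on the minus strand for *Gss* and chr10:75048435-75048670 on the plus strand for *Ggt1*.
*Gclm*: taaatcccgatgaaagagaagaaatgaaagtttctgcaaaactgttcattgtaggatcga
*Gss*: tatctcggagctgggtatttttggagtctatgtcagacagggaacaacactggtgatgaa
*Ggt1*: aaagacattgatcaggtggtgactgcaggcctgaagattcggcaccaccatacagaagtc
Probes of one gene moved together across the 27 arrays: the correlation between probes was 0.96 for *Gclm*, 0.95 to 0.99 for *Gsr* and 0.93 to 0.99 for *Slc7a11*, over arrays that share the reference.

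Median intensity of an array ran from 81.8 to 226 in Cy5 and from 115 to 386 in Cy3, and 58.9% to 69.3% of probes were well above background in Cy5. The 3 *Keap1-/-* arrays were alone on their slide and on their day of scanning, so genotype and slide cannot be told apart for them. The 3 wild-type P7 arrays were also alone on their slide, so each comparison with them has the same limit of slide. No slide held adult arrays of both genotypes, so genotype and slide cannot be told apart in adults either. The arrays labelled E11.5 replicate 3 and E15.5 replicate 1 stood apart from their groups: the former correlated at 0.98 with both other E15.5 arrays and at 0.79 and 0.84 with the other E11.5 arrays, and the latter at 0.93 and 0.96 with both other E11.5 arrays and at 0.82 with the other E15.5 arrays. Calls that involve them are given with and without both. *Nfe2l2* was lower by 3.63 on the log2 scale in *Nrf2-/-* than in wild-type esophagi at P7 (limma, Benjamini-Hochberg adjusted p = 2.39799e-07) and by 4.30 in adult epithelium (adjusted p = 0.000530574), with no overlap. *Keap1* read -0.26, 0.22 and 0.64 in *Keap1-/-* against 0.54, 1.00 and 0.42 in wild-type esophagi at P7, which overlap (adjusted p = 0.145). Whether its probe lies in the deleted stretch is not known here, so it checks nothing about the label. *Gclc*, *Gclm*, *Gss* and *Gsr* had a probe well above background on all 27 arrays. *Slc7a11* had none on any array at E11.5, E15.5 or in wild-type, *Nrf2-/-* and *Nrf2-/-Keap1-/-* esophagi at P7. *Ggt1* was not well above background on any array at E15.5 or in wild-type and *Nrf2-/-* esophagi at P7.

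**Figure D1:**
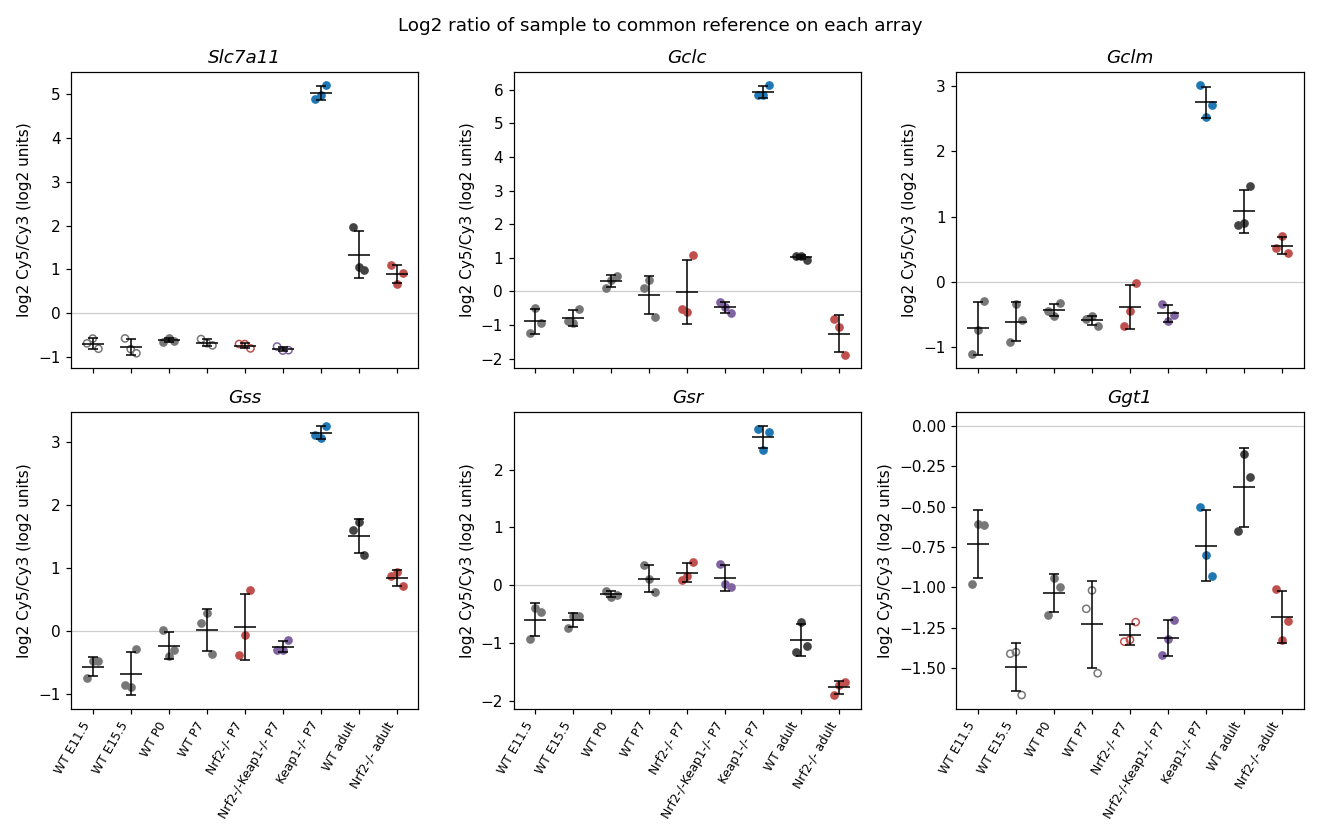
Log2 ratio of sample to reference (y axis, log2 units, a separate scale for each gene) on each of 27 arrays, by group along the x axis; horizontal bars give the mean and whiskers the SD of 3 arrays, and open symbols mark groups in which no array had a probe well above background. The *Keap1-/-* arrays sit above those of every other group for all genes except *Ggt1*, with *Gclc* at 5.83 to 6.13 and *Slc7a11* at 4.90 to 5.21.

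In *Keap1-/-* esophagi at P7 the genes of cystine uptake, synthesis and recycling were higher than in wild-type esophagi. By the measured ratios their rise was larger than that of *Ggt1*, which lay near background. *Gclc* rose 66.0-fold, *Gclm* 10.2-fold, *Gss* 8.77-fold and *Gsr* 5.48-fold, and *Slc7a11*, which was not well above background in the wild type, was at least 52.2-fold higher. *Ggt1*, on the breakdown side, was also not well above background in the wild type and rose at least 1.15-fold (1.40-fold by ratios). The comparison asks what the loss of Keap1 does in the esophagus at P7. A gene was called at an adjusted p of 0.05 or lower in limma's test over 19191 genes, which called 33.3% of them, 15.4% as higher. All 6 were called, but *Slc7a11* entered that test through its *Keap1-/-* arrays alone, so its call adds nothing to this count. The median change of the 6 genes was 3.24 on the log2 scale, against -0.02 over all genes tested. In whole tissue, more RNA per cell and more cells that express a gene cannot be told apart.

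*Slc7a11*, the cystine carrier, read 4.90, 4.99 and 5.21 in *Keap1-/-* esophagi against -0.60, -0.69 and -0.74 in the wild type, far apart. The fitted difference was 5.71 (SE 0.0951, n = 3 arrays a group). Without any filter on dim probes, over all 28427 genes, of which 21.5% were called, its adjusted p was 4.57943e-11. The wild-type arrays give only a bound. By Cy5 alone, after loess and quantile scaling, the mean of the bright group was 60.5-fold that of, per array, the higher of the probe's own signal and the lowest signal well above background. The ratios gave 52.2-fold, and the lower of these values is printed as the bound, open to dye bias since dyes were not exchanged. The 4 *Slc7a11* probes gave differences of 4.53 to 6.93.

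*Gclc*, which carries the active site of the ligase, read 5.83, 5.84 and 6.13 in *Keap1-/-* esophagi. Wild-type values were 0.10, 0.34 and -0.76, so the groups were far apart although the wild type spread widely. The difference was 6.04 (SE 0.405, adjusted p = 2.40486e-06). It was the 3rd largest increase among 19191 genes. *Gclm*, the modifier subunit, read 3.01, 2.53 and 2.71 against -0.58, -0.53 and -0.67, again without overlap. Its difference was 3.34 (SE 0.169, adjusted p = 2.77335e-07), and the probe across the splice junction gave 3.69 and the other 3.00. Both subunits of the ligase thus rose, the catalytic one by more on this scale.

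*Gss*, the synthase of the last step, read 3.12, 3.06 and 3.26 in *Keap1-/-* against 0.12, 0.29 and -0.36 in wild-type esophagi. The groups did not overlap, and the difference was 3.13 (SE 0.235, adjusted p = 5.74699e-06). *Gsr*, the reductase that recycles glutathione, read 2.70, 2.34 and 2.65 against 0.34, 0.11 and -0.12. These groups were also apart, with a difference of 2.45 (SE 0.159, adjusted p = 2.07362e-06), and its 3 probes gave 2.36 to 2.53. Of the values of *Gsr*, 39 of 81 came from spots that the scanner software had marked as outliers, and of *Gss* 8 of 27. With such spots left out, *Gsr* and *Gss* could not be tested in this comparison, so their calls rest on keeping them.

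*Ggt1* read -0.50, -0.80 and -0.93 in *Keap1-/-* against -1.13, -1.02 and -1.53 in wild-type esophagi, and its probe was well above background on 2 of 3 and on 0 of 3 arrays. The groups did not overlap, by a narrow margin. The difference was 0.49 (SE 0.147, adjusted p = 0.0266), at least 1.15-fold by the bound. The call was lost without wild-type P7 replicate 3 (adjusted p = 0.0903), without *Keap1-/-* replicate 1 (0.0826) and without *Keap1-/-* replicate 2 (0.0562). *Gclc*, *Gclm*, *Gss* and *Gsr* were called as higher without any single array. *Slc7a11* was not tested without a *Keap1-/-* array, since its probes then were well above background on 2 arrays of the fit, fewer than the 3 required. From the processed signals of the scanner software, the *Ggt1* difference was 1.20 and still called.

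The *Nrf2-/-Keap1-/-* esophagi lack both proteins, so against the wild type they show the joint loss. Keap1 loss without Nrf2 is the comparison with *Nrf2-/-* esophagi, given in the next paragraph. In *Nrf2-/-Keap1-/-* esophagi, *Slc7a11* read -0.77, -0.86 and -0.85 and *Gclc* -0.32, -0.46 and -0.65. *Gclm* read -0.34, -0.61 and -0.51, and *Gss* -0.31, -0.30 and -0.15. *Gsr* read 0.37, 0.01 and -0.03, and *Ggt1* -1.42, -1.32 and -1.20. All lay far below the *Keap1-/-* arrays for every gene except *Ggt1*, where the gap was small. Of the 6 genes, 0 were called against the wild type in limma's test, where 0.459% of all genes were called. At an unadjusted p of at most 0.05 the test held 17.5% of all genes and 0 of the 6. *Slc7a11* was not well above background in either group and *Ggt1* not in the wild type, so a decrease in them could be missed. The differences ran from -0.37 for *Gclc* (95% interval -1.26 to 0.53) to 0.11 for *Gclm* (-0.27 to 0.48). The *Gclc* interval thus reaches past a 2-fold decrease. Of 3 adipocyte markers 2 were called higher in these esophagi (median 3.79), and their part was not tested.

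Against the *Nrf2-/-Keap1-/-* esophagi all 6 genes were called higher in *Keap1-/-* esophagi, where 33.4% of all genes were called and 15.1% as higher. Both comparisons share the *Keap1-/-* arrays. In this one too, *Slc7a11* entered the test through those arrays alone, so its call adds nothing to the count. *Gclc* was higher by 6.41, *Gss* by 3.40, *Gclm* by 3.24, *Gsr* by 2.45 and *Ggt1* by 0.57 (adjusted p = 0.0125), and *Slc7a11* at least 57.9-fold, the lower of the value by ratios and by Cy5 alone. Whether Keap1 loss acted differently with and without Nrf2 was tested as an interaction, with *Nrf2-/-* as the second baseline. It was called, as positive, for 5 of the 6 genes, against 15.1% of all genes, or 7.14% as positive: 6.50 for *Gclc* (SE 0.573, adjusted p = 4.82274e-05), 5.79 for *Slc7a11*, 3.45 for *Gss*, 3.44 for *Gclm* and 2.55 for *Gsr*. *Slc7a11* was well above background only in the *Keap1-/-* group of the 4, so that its value rests on 3 groups with only a bound. Its call thus adds nothing to this count. Without the filter on dim probes it had an adjusted p of 1.83991e-09. For *Ggt1* the interaction was 0.51 (95% interval 0.05 to 0.96, adjusted p = 0.126). With Nrf2 absent, the test of *Keap1* loss (*Nrf2-/-Keap1-/-* against *Nrf2-/-*) called 0 of the 6 genes and 0% of all genes, while at most 0.05 unadjusted was reached by 6.28% of all genes and 0 of the 6. The lowest of the 6 values was that of *Gclc*, at -0.46 (95% interval -1.35 to 0.43). *Slc7a11* was not well above background in either of these groups and *Ggt1* not in *Nrf2-/-* esophagi, so a decrease in them could be missed.

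**Figure D2:**
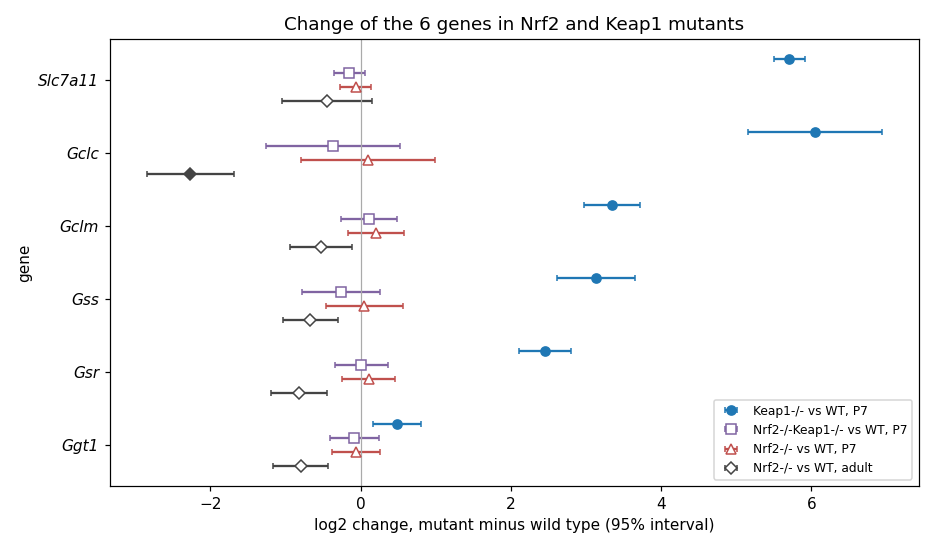
Log2 change of each gene (y axis) in a mutant minus its wild type of the same age (x axis, log2 units) with its 95% interval from limma; filled symbols were called at an adjusted p of 0.05 or lower and open ones were not. The 6 *Keap1-/-* changes run from 0.49 to 6.04, the *Nrf2-/-* and *Nrf2-/-Keap1-/-* changes at P7 lie between -0.37 and 0.21, and those of adult *Nrf2-/-* epithelium between -2.27 and -0.45.

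Loss of Nrf2 alone left no called difference in the 6 genes at P7. *Slc7a11* read -0.71, -0.71 and -0.81 in *Nrf2-/-* esophagi, *Gclm* -0.69, -0.45 and -0.02 and *Ggt1* -1.34, -1.32 and -1.21. *Gclc* read -0.51, -0.62 and 1.08, *Gss* -0.39, -0.06 and 0.64 and *Gsr* 0.08, 0.16 and 0.40. Each range overlapped that of the wild type, and for *Gclc*, *Gclm*, *Gss* and *Gsr* replicate 3 was the highest array. limma called 0 of the 6 and 0.0156% of all genes, and an unadjusted p of at most 0.05 was given to 0 of the 6 and to 10.8% of all genes. *Slc7a11* and *Ggt1* were not well above background on any array of either group, so a decrease in them could be missed. *Slc7a11* was in this fit through its *Keap1-/-* arrays alone. Differences ran from -0.07 for *Slc7a11* to 0.21 for *Gclm* (95% interval -0.17 to 0.58). That of *Gclc*, 0.09, had an interval of -0.80 to 0.99, the widest of the 6.

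In adult epithelium, where Nrf2 loss was compared at 8 weeks, the mean of each of the 6 genes was lower in *Nrf2-/-* than in wild-type mice, and *Gclc* was called. For 3 genes that direction depended on the scaling: under median centring of the arrays instead of loess, which moved the median of all genes from 0.02 to 0.40, *Gclm* and *Gss* both had 0.03, and with each spot's own local background *Slc7a11* had 0.39. The test called 0.446% of all genes, 0.22% as lower. Median change was -0.74 for the 6 genes and 0.02 for all genes tested. *Gclc* read -0.81, -1.08 and -1.88 in *Nrf2-/-* against 1.05, 1.04 and 0.95 in wild-type epithelium, far apart, with a difference of -2.27 (SE 0.252, 4.82-fold, adjusted p = 0.0138). It was the 6th largest decrease among 18156 genes. The call was lost without wild-type adult replicate 1 (adjusted p = 0.0550), without wild-type adult replicate 2 (0.0810) and without *Nrf2-/-* adult replicate 2 (0.0595), at differences of -2.25, -2.26 and -2.36, and with median centring (-1.62, adjusted p = 0.0670). All adult *Nrf2-/-* arrays but only 1 of 3 wild-type ones were read with the newer software version, and with the version as a block the difference was -2.20 and not called (adjusted p = 0.122). Between arrays scanned on the same day, 2 *Nrf2-/-* and 1 wild-type, the difference was -1.89, and those of the 5 other genes ran from -0.85 to -0.11.

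The other 5 genes did not pass the test in adults. *Gsr* read -1.90, -1.73 and -1.68 in *Nrf2-/-* against -1.16, -0.64 and -1.05 in wild-type epithelium, without overlap (difference -0.82, 95% interval -1.19 to -0.45, adjusted p = 0.0874). *Ggt1* read -1.01, -1.32 and -1.21 against -0.65, -0.18 and -0.32, also apart (-0.80, interval -1.16 to -0.43, adjusted p = 0.0917). The reductase and the breakdown enzyme had the lowest adjusted p of these 5. *Gss* read 0.88, 0.93 and 0.70 against 1.60, 1.73 and 1.21 (-0.67, interval -1.04 to -0.30, adjusted p = 0.124). *Gclm* read 0.52, 0.70 and 0.45 against 0.88, 0.91 and 1.46 (-0.53, interval -0.94 to -0.12, adjusted p = 0.217). Both were apart, so that 5 of the 6 genes had groups that did not overlap, as 22.6% of all genes did. *Slc7a11* read 1.09, 0.67 and 0.90 against 1.96, 1.06 and 0.99, and here the groups overlapped (-0.45, interval -1.05 to 0.15, adjusted p = 0.417). Striated muscle markers stood higher in the same *Nrf2-/-* arrays: all 6 were higher by a median of 1.69, 0 were called, 5 reached an unadjusted p of 0.05, and the mean of the list ran from 2.05 to 3.41 against 0.91 to 2.09. The means of 8 stratified epithelium markers ran from 3.86 to 4.01 against 3.64 to 4.13. The part of these tissue markers in the differences was not tested.

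Whether Nrf2 loss acted differently in adults than at P7 was tested as an interaction over the 12 arrays. It was negative for all 6 genes and called for 0 of them, with 0.0974% of all genes called and 11.2% at an unadjusted p of at most 0.05. With each spot's own local background, *Slc7a11* turned to 0.46. *Gclc* had -2.36 (95% interval -3.72 to -1.002, adjusted p = 0.212), and *Gsr* -0.93 (interval -1.43 to -0.42, adjusted p = 0.193). *Ggt1* had -0.74 (adjusted p = 0.283), *Gclm* -0.73 (0.342), *Gss* -0.72 (0.477) and *Slc7a11* -0.38 (0.668). Unadjusted, 4 of the 6 reached 0.05, *Gclc*, *Gclm*, *Gsr* and *Ggt1*, and after adjustment 0 did. *Slc7a11* and *Ggt1* were not well above background on any P7 array of either genotype and entered this fit through adult arrays alone. Their interactions thus rest on the adult difference and add nothing to these counts.

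From P7 to adult in wild-type mice, the maturation phase, the RNA of the cystine carrier and of the synthesis enzymes was higher in adult samples and that of *Gsr* lower. *Slc7a11* rose at least 3.81-fold, *Gclm* 3.19-fold, *Gss* 2.82-fold, *Gclc* 2.18-fold and *Ggt1* at least 1.62-fold, whereas *Gsr* was 2.08-fold lower. The test called 42.9% of all genes, 20% as higher and 22.9% as lower, so that many genes outside the pathway changed too. All 6 genes were called, but *Slc7a11* and *Ggt1* entered the test through the adult arrays alone, so their calls add nothing to this count. Without the filter on dim probes, where 27.2% of all genes were called, their adjusted p were 0.000950 and 0.0106. The median change was 1.31 for the 6 genes and 0.01 for all genes. Set against the wild-type P7 values given above, *Slc7a11* (1.96, 1.06 and 0.99) differed by 2.01 (SE 0.255) and *Gclm* (0.88, 0.91 and 1.46) by 1.67 (SE 0.177, adjusted p = 0.000361). *Gss* (1.60, 1.73 and 1.21) differed by 1.50 (SE 0.211, adjusted p = 0.00128), and *Gclc* (1.05, 1.04 and 0.95) by 1.12 (SE 0.267, adjusted p = 0.0125). *Ggt1* differed by 0.85 (SE 0.186). For none of these 5 did the adult and P7 arrays overlap. *Gsr*, at -1.16, -0.64 and -1.05, lay below all P7 arrays and differed by -1.06 (SE 0.184, adjusted p = 0.00324). All 3 *Gsr* probes were lower, by 1.01 to 1.17. Between 2 adult and 3 P7 arrays scanned on the same day the differences were 2.19 for *Slc7a11*, 1.65 for *Gss*, 1.49 for *Gclm*, 1.16 for *Gclc*, 0.81 for *Ggt1* and -1.01 for *Gsr*. The *Gclc* call was lost with each spot's own local background (0.81, adjusted p = 0.114).

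The adult samples were dissected epithelium, and markers of the outer layers moved with this comparison. All 6 striated muscle markers were called lower (median -3.91), as were all 5 of fibroblasts and mesenchyme (-2.15), all 4 of endothelium (-0.96) and 4 of 6 of smooth muscle. The mean of the striated muscle list ran from 0.91 to 2.09 in adult against 4.37 to 5.61 in P7 samples, and every one of these markers was still well above background on all adult arrays. Stratified epithelium markers had a median change of 0.39, with 2 of 8 called higher and 1 lower. Cornified layer markers had 3 of 6 called higher and 0 lower (median 0.95), and the mean of that list ran from 4.80 to 5.10 in adult against 2.65 to 4.10 in P7 samples. The part of tissue makeup in the changes of the 6 genes was not tested.

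In *Nrf2-/-* mice the same step from P7 to adult called 5 of the 6 genes, and 55% of all genes. The P7 and adult *Nrf2-/-* arrays were scanned on different days and read with different software versions, and wild-type arrays are the only link between these in the fit. *Slc7a11*, which entered the test through adult arrays alone, rose by 1.63, at least 3.09-fold (adjusted p = 9.36127e-05 without the filter on dim probes), *Gclm* by 0.94 (adjusted p = 0.00137) and *Gss* by 0.77 (adjusted p = 0.0218). *Gclc* was lower in adults by 1.24 on the log2 scale (log2 change -1.24, SE 0.438, adjusted p = 0.0317), whereas it rose in the wild type. Without *Nrf2-/-* P7 replicate 3, at 1.08 the highest *Gclc* array of its group, the change was -0.69 and not called (adjusted p = 0.109). The *Gclc* call was also lost without *Nrf2-/-* adult replicate 2 (adjusted p = 0.0527) or replicate 3 (-0.93, adjusted p = 0.120), and that of *Gss* without replicate 1 or 2 of either *Nrf2-/-* group (0.55 to 0.76, adjusted p of 0.0546 to 0.0912). With the scan day as a block *Gclm* had 0.42 (adjusted p = 0.308), *Gclc* -0.83 (0.487) and *Gss* 1.30 (0.0713), and with the software version 0.37 (0.348), -1.14 (0.335) and 1.23 (0.0614), none of them called. *Gsr* fell by 1.99 (adjusted p = 2.35019e-06), and its lower level in adult than in P7 samples was thus called in both genotypes. *Ggt1* had 0.11 (95% interval -0.24 to 0.46, adjusted p = 0.579), with no P7 array well above background. It was called as higher from processed signals (1.35, adjusted p = 0.00361), from deposited ratios (1.35, 0.00367) and with scale normalization between arrays (0.41, 0.0399). Its lack of a call thus depends on the processing. The wild-type and *Nrf2-/-* arrays were all different, and the difference between genotypes is the interaction given above, which was called for none of the 6.

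**Figure D3:**
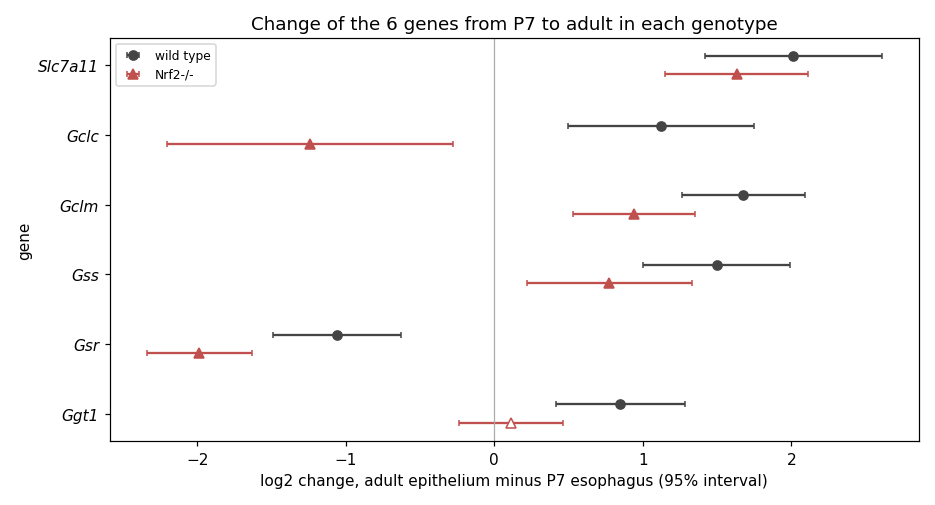
Log2 change of each gene (y axis) from P7 esophagus to adult epithelium (x axis, log2 units) in wild-type and *Nrf2-/-* mice, with its 95% interval from limma; filled symbols were called. *Gclc* lies at 1.12 in the wild type and at -1.24 in *Nrf2-/-* mice, and *Gsr* at -1.06 and -1.99.

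Across the metaplasia phase 5 of the 6 genes could be tested, and few of their differences passed. *Slc7a11* lay between -0.92 and -0.56 on all 12 arrays, was well above background on 1 of them, at P0, and was not tested. *Gclc* read -1.24, -0.50 and -0.93 at E11.5, -0.88, -0.95 and -0.52 at E15.5 and 0.10, 0.33 and 0.47 at P0. The P0 arrays lay above those at E15.5, and *Gclc* rose by 1.08 (SE 0.277, adjusted p = 0.0208), the only call among 5 genes tested, where 19.7% of all genes were called. Without both embryonic arrays that stood apart the rise was 1.04 (adjusted p = 0.0552). The call was also lost without E15.5 replicate 1, E15.5 replicate 2, P0 replicate 2 or P0 replicate 3 (adjusted p of 0.0601 to 0.0757).

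*Gsr* read -0.93, -0.41 and -0.47 at E11.5, -0.74, -0.54 and -0.53 at E15.5, and -0.10, -0.20 and -0.17 at P0. From E11.5 to P7 it rose by 0.71 (SE 0.159, adjusted p = 0.00807), without overlap, and without both arrays that stood apart by 0.78, still called. *Ggt1* read -0.98, -0.61 and -0.61 at E11.5, -1.41, -1.40 and -1.67 at E15.5, and -1.17, -0.94 and -0.997 at P0. From E11.5 to P7 it was lower by 1.32-fold at least (difference -0.50, SE 0.160, adjusted p = 0.0392), without overlap. That call was lost without both arrays that stood apart (-0.43, adjusted p = 0.0861) and under 8 of the 12 settings that left out 1 array, at adjusted p of 0.0501 to 0.137. Over the whole phase 2 of 5 tested genes were called, against 30.2% of all genes.

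*Gclm* and *Gss* were not called at any metaplasia step. *Gclm* read -1.11, -0.74 and -0.30 at E11.5, -0.92, -0.34 and -0.58 at E15.5, and -0.44, -0.52 and -0.33 at P0. Its difference from E11.5 to P7 was 0.12 (95% interval -0.32 to 0.56, adjusted p = 0.679). *Gss* read -0.75, -0.48 and -0.48 at E11.5, -0.86, -0.89 and -0.29 at E15.5, and 0.01, -0.41 and -0.30 at P0. From E11.5 to P7 it differed by 0.58 (interval 0.12 to 1.05, adjusted p = 0.0588), and *Gclc* by 0.78 (interval 0.17 to 1.39, adjusted p = 0.0556). Without both arrays that stood apart these differences were 0.33 for *Gclm*, 0.63 for *Gss* and 0.76 for *Gclc*, not called. Without wild-type P7 replicate 3, the lowest *Gclc* and *Gss* array at P7, both were called, at 1.11 (adjusted p = 0.00873) and 0.77 (adjusted p = 0.0267). From P0 to P7 limma called 0 of 5 genes and 2.42% of all genes, and unadjusted p of at most 0.05 were given to 0 of 5 and to 14.2%. The values ran from -0.41 for *Gclc* (interval -1.02 to 0.20) to 0.27 for *Gsr* (interval -0.09 to 0.62). From E11.5 to E15.5 it called 0 of 5 genes and 0% of all genes, of which 1.64% were at an unadjusted p of at most 0.05, and 1 of 5, *Ggt1* (-0.76, groups apart, adjusted p = 0.996). Without both arrays that stood apart, *Ggt1* was called in that step (-0.74, adjusted p = 0.0390).

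The genes around the pathway were read as lists. In *Keap1-/-* against wild-type esophagi at P7, where 33.3% of all genes were called, the list of genes that supply NADPH for Gsr had 6 of 7 called higher and 0 lower (median 1.51). Its largest changes were in *G6pdx* (2.61, adjusted p = 1.059e-06) and *Pgd* (2.33), the dehydrogenases of the pentose phosphate pathway, and *Me1* (1.64), malic enzyme. Of 11 genes that use glutathione in thiol repair and glyoxalase steps, 5 were called higher and 0 lower (median 0.43), led by *Esd* (2.33), *Glrx* (2.15), a glutaredoxin, and *Glo1* (1.38), glyoxalase. All 8 Nrf2 reference targets were called higher (median 3.77), led by *Gstm1* (5.97), a glutathione transferase, *Akr1b8* (5.55) and *Nqo1* (4.89), a quinone reductase. These targets were listed because they are known to follow Nrf2.

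Lists at both ends of the pathway were mixed, with shares called not far from the 33.3% of all genes. Of 16 genes of cysteine and glutamate supply, 3 were called higher and 4 lower (median 0.10): *Slc3a2* (2.51, adjusted p = 7.80724e-07), the heavy chain that pairs with Slc7a11, *Slc1a4* (2.59) and *Slc1a1* (1.36), both amino acid carriers, were higher. *Cdo1* (-1.02), which oxidises cysteine, and *Glul* (-0.61), glutamine synthetase, were lower. Of 11 genes of the gamma-glutamyl cycle and glutathione breakdown, 3 were called higher and 2 lower (median 0.19): *Oplah* (1.66), 5-oxoprolinase, *Ggt5* (0.96) and *Dpep1* (0.93) rose, and *Chac2* (-1.13), a cytosolic glutathione degrader, and *Anpep* (-0.83) fell. Of 10 amino acid response genes, 4 were called higher and 0 lower (median 0.44), with *Trib3* at 1.85, *Phgdh* at 1.62 and *Slc7a5* at 1.04. Of all genes, 33.3% were called in either direction and 15.4% as higher. Beside these, 4 of 5 fibroblast markers were called lower (mean of the list 0.75 to 1.31 against 2.04 to 2.39) and 5 of 6 smooth muscle markers lower and 1 higher. The epithelium list had 1 of 8 called higher and 2 lower, with means of 3.35 to 3.55 against 3.41 to 3.91. The cornified layer list had 2 of 6 called higher and 0 lower (median 0.19), with means of 3.01 to 4.27 against 2.65 to 4.10. The part of these markers was not tested.

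In *Nrf2-/-Keap1-/-* against wild-type esophagi, limma called 0 genes of these 6 lists, with medians from -0.19 to 0.17. Unadjusted, 1 to 3 genes of each list reached 0.05 there. In adult *Nrf2-/-* epithelium, 0.446% of all genes were called, 0.22% as lower. There, 5 of 8 Nrf2 reference targets were called lower and 0 higher (median -1.40), with *Nqo1* at -3.41, *Akr1b8* at -2.75 and *Gsta3* at -2.09. The paper names *Akr1b8*, *Nqo1*, *Gsta3* and *Gstm1* as lower in these samples. The list was chosen with earlier results of these data known, so its count is no separate support. Of 11 glutathione users 1 was called, *Esd* at -1.39 (adjusted p = 0.00368), and of 7 NADPH genes 1, *G6pdx* at -1.05 (adjusted p = 0.0447). In the 3 other lists 0 genes were called there (unadjusted, 3 of 12, 2 of 14 and 4 of 10 reached 0.05, in the order given next), with medians of 0.04 for the gamma-glutamyl cycle, -0.06 for cysteine and glutamate supply and 0.24 for the amino acid response.

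**Figure D4:**
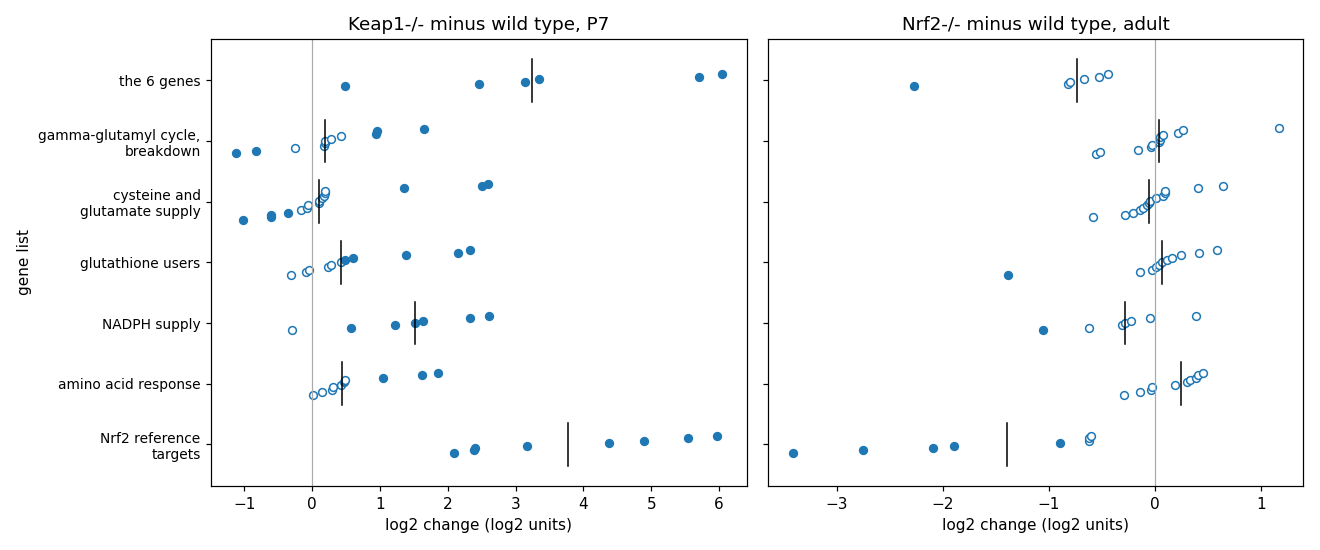
Log2 change of each tested gene (x axis, log2 units) by list (y axis) in *Keap1-/-* minus wild-type esophagi at P7 (left) and in adult *Nrf2-/-* minus wild-type epithelium (right); each point is a gene, filled where called, the black line is the median, and height within a list only separates points. The Nrf2 reference targets have medians of 3.77 and -1.40 and the 6 genes 3.24 and -0.74, while the gamma-glutamyl and supply lists have medians between -0.06 and 0.19.

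In wild-type maturation from P7 to adult, where 42.9% of all genes were called, NADPH genes had 4 of 7 called higher and 1 lower, with *G6pdx* at 2.27, *Me1* at 2.22, *Pgd* at 1.69 and *Nnt*, the mitochondrial transhydrogenase, at -1.16. The supply list had 3 of 15 called higher and 5 lower. *Cbs* (1.92) and *Cth* (1.45), which make cysteine from homocysteine, rose and *Cdo1* (-4.48) fell. Glutathione users had 5 of 11 called higher and 2 lower, with *Glrx* at 3.31 and *Gsto1*, an omega-class transferase, at -2.36. Of the reference targets 6 of 8 were called higher and 0 lower, with *Hmox1* at 3.82, *Gstm1* at 3.78 and *Nqo1* at 3.46.

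The order of the levels differed between genes. *Slc7a11*, *Gclm* and *Gss* had the same first 3 groups by mean, *Keap1-/-* at P7, wild-type adult and *Nrf2-/-* adult. Neighbours among these and the group after them did not overlap, except both adult groups for *Slc7a11*. The remaining 6 groups of *Slc7a11* (means -0.82 to -0.62) and *Gclm* (-0.71 to -0.39) overlapped each with the next, and those of *Gss* did so except between *Nrf2-/-Keap1-/-* (-0.25) and E11.5 (-0.57). *Gclc* had *Keap1-/-* esophagi (5.93 ± 0.170), wild-type adult epithelium (1.01 ± 0.0575) and P0 (0.30 ± 0.184) as its highest groups without overlap among them, and *Nrf2-/-* adult epithelium as its lowest group (mean -1.26 ± 0.557, SD, n = 3), which overlapped with E11.5 (-0.89 ± 0.369). *Gsr* had both adult groups at the bottom, wild type at -0.95 ± 0.272 and *Nrf2-/-* at -1.77 ± 0.118, and they did not overlap with each other. *Ggt1* was highest in wild-type adult epithelium (-0.38 ± 0.243), which overlapped with E11.5 (-0.73 ± 0.211), and that with *Keap1-/-* esophagi (-0.74 ± 0.220).

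The correlation between *Gclm* and *Gss* over the 27 arrays was 0.96, and 0.90 over the 24 arrays other than *Keap1-/-*. That between *Gclm* and *Slc7a11* was 0.96 and 0.87. *Gsr* and *Slc7a11* went from 0.59 to -0.75 and *Gclc* and *Slc7a11* from 0.88 to 0.23 when the *Keap1-/-* arrays were left out. These values describe arrays that share the reference and, within a group, the genotype and age. Among 18147 genes with a probe well above background on at least 14 arrays, those most like *Gclc* were *Blvrb* (0.97), *Akr1b8* (0.95) and *Slc1a4* (0.94). Those most like *Slc7a11* were *Copg2* (0.98), *Srxn1* (0.97) and *Abcc4* (0.96). *Gclm* had *Gss*, *Abcc4* and *Gstm1* (all 0.96), and *Gss* had *Gclm*, *Gstm1* and a transcript without a gene symbol (all 0.96). *Gsr* had *Chpf2* (0.95), *Gbe1* (0.93) and *Cep85* (0.93). For *Ggt1* the values were lower, with *A030005L19Rik* at 0.76, *BF721801* at 0.74 and *Tatdn1* at 0.73.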

How the data were processed

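RNA of 27 mouse esophagus samples was hybridised to Agilent 2-colour arrays. The authors deposited scanner files with mean and local background intensities of each spot in both channels, extracted with Agilent Feature Extraction (9.1 per the labels), and a table of log10 ratios of Cy5 over Cy3. For 99.8% of values that table was within 0.01 (log2 units) of the ratio in the scanner files. The scanner files' headers name software version 10.5.1.1 for 20 arrays and 10.7.3.1 for 7. From the deposited intensities, log2 ratios were computed in R 4.3.3 with limma 3.58.1: normexp background correction (offset 50), then loess within each array with control spots at weight 0. Spots marked as outliers were kept. A local background over 5 times the array's median was set to that median, and the 43 such spots were left out. Spots were averaged per probe and probes per gene. A gene was tested where 3 or more arrays of the fit had a probe well above background in Cy5 and each group had at least 2 values. lmFit and eBayes were run on the arrays of a comparison's fit, on all such genes, with Benjamini-Hochberg adjustment, and genes at an adjusted p of 0.05 or lower were called. Fits held 12 arrays (E11.5 to P7 in the wild type; 4 genotypes at P7; *Nrf2-/-* and wild type at both ages) or 6 (adult against P7 in the wild type; genotypes in adults). The number of arrays limits precision.

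The authors' methods name Significance Analysis of Microarrays. limma was used here on the recomputed ratios. Tested on simulated data, the fit of *Nrf2-/-* against wild type at P7 recovered 74% of 2-fold and 95% of 4-fold changes among 19190 genes. Other fits recovered 60% of 2-fold changes (E15.5 against E11.5), 61% (adult against P7, wild type), 62% (*Nrf2-/-* against wild type, adult) and 76% (adult against P7, *Nrf2-/-*). The authors' methods name no pairing by replicate number, and the fits used none. Deviations of same-numbered arrays correlated from -0.44 to 0.64. The correlation exceeded 0.1 in 9 of 18 pairs of the metaplasia fit, 7 of 18 of the P7 fit and 0 of 3 of the adult fit. This check does not settle whether the numbers pair samples, so replicate was also used as a block. The 6 genes, the pathway lists and the marker lists were chosen with earlier results of these data known. Genes named from a list are at most the 3 called with the largest increase and the 3 with the largest decrease, and genes alike are the 3 with the highest Pearson correlation. A gene that this rule names is not reported here. Alternatives changed 1 choice at a time: the ratios as deposited or from processed signals, background, normalization, outlier spots, the filter, the probe rule, the arrays in the fit, replicate, slide, scan and software version as blocks, a 2-fold minimum and each array left out. Chosen after seeing the data was the older annotation of 20 scanner files, which names 11 of the 12 probes.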

Additional observations from a re-analysis of the deposited data

Results flagged for a closer look

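The effect of Keap1 loss at P7 differed with and without Nrf2 by the interaction test for 5 of the 6 genes (limma, Benjamini-Hochberg adjusted). On the log2 scale the difference was 6.50 for *Gclc*, 5.79 for *Slc7a11*, 3.45 for *Gss*, 3.44 for *Gclm* and 2.55 for *Gsr*. *Slc7a11* was well above background in the *Keap1-/-* group alone, so its value rests on a bound in the 3 other groups. It entered the test through that group alone, so its call adds nothing to the count. The *Keap1-/-* arrays shared a slide and a day of scanning with no other group, and a software version with no other P7 group. The genotype and these cannot be told apart at P7.

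The effect of Nrf2 loss differed between adult epithelium and P7 esophagus for 2 genes of the pathway lists. It was -1.22 for *Esd* (adjusted p = 0.0111), a glutathione user that hydrolyses S-formylglutathione, and -2.71 for *Akr1b8* (adjusted p = 0.00264), an aldo-keto reductase among the Nrf2 reference targets. Adult and P7 samples also differed in the dissected tissue, and its part in these differences was not tested.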

How the results depend on the processing

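Of 2122 values of the 6 genes under alternatives, 2038 kept their direction and side of the threshold or were not called either way, 59 lost their call, 25 gained one and 0 called values turned sign. From E15.5 to P0, where 1 gene was called, 2 were called from processed signals and from deposited ratios, 3 with all 27 arrays in 1 fit, and 0 with outlier spots left out, with each spot's own local background or without E11.5 replicate 3 and E15.5 replicate 1. With outlier spots left out, *Gclc*, the gene called, was not tested in this step. From E11.5 to P7 the 2 calls became 1 from processed signals or deposited ratios, without background correction, with median centring, own local background, the filter on both channels, slide as a block or without those 2 arrays, and 0 with a 2-fold minimum. The filter on both channels left *Ggt1* untested. From E11.5 to E15.5, 1 was called in place of 0 without E11.5 replicate 3 and E15.5 replicate 1. In adult *Nrf2-/-* against wild-type epithelium, where 1 was called, 0 were with median centring or software version as a block, and 3 with own local background or all 27 arrays in 1 fit. For its difference from P7, 0 became 2 and 1 under those last settings. From P7 to adult in *Nrf2-/-* mice, 5 calls became 3 with outlier spots left out, slide as a block or a 2-fold minimum, and 2 with scan or software version as a block. With outlier spots left out, *Gss* was not tested in that step. The Keap1 and Nrf2 interaction had 3 in place of 5 with outlier spots left out, where 4 genes were tested. With 1 array left out the counts ran from 0 to 2 (E15.5 to P0), 1 to 3 (E11.5 to P7), 4 to 6 (P7 to adult, wild type), 4 to 6 (*Keap1-/-* against wild type), 5 to 6 (against *Nrf2-/-Keap1-/-*), 4 to 5 (interaction), 0 to 2 (adult *Nrf2-/-*) and 3 to 5 (P7 to adult, *Nrf2-/-*), and stayed at 0 elsewhere. Part of these lower counts reflects genes left untested: *Slc7a11* without a *Keap1-/-* array, and *Slc7a11* and *Ggt1* without an adult array (P7 to adult, wild type). The causes were not tested.

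With the replicate number as a block, the count of the 6 genes called was 6 in *Keap1-/-* against wild-type esophagi and 1 in adults. It moved from 5 to 4 from P7 to adult in *Nrf2-/-* mice, where *Gclc* lost its call (adjusted p = 0.0552), and changed no other call of the 6 genes. Over all genes the block moved the adult count from 81 to 21. Over all alternatives other than leaving out arrays, calls over all genes ran from 1622 to 8115 for *Keap1-/-* against wild type (6396), from 3332 to 8472 for P7 to adult in the wild type (7774), from 4 to 501 for *Nrf2-/-Keap1-/-* against wild type (88), from 19 to 1682 for adult *Nrf2-/-* (81), and from 0 to 2691 for E11.5 to E15.5 (0). Median centring moved the share of higher calls from 46.1% to 66.1% in *Keap1-/-* esophagi, from 55.6% to 36.3% from E11.5 to P7 and from 50.6% to 84.2% in adult *Nrf2-/-* epithelium. Signal over background limits *Slc7a11* and *Ggt1*, which give bounds in most groups.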

Other observations

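The neighbours of the pathway also changed from P7 to adult in *Nrf2-/-* mice, in a comparison that called 55% of all genes, which is close to the shares of several lists. Of the glutathione users 6 of 11 were called higher and 4 lower, with *Glrx* at 3.92 and *Gpx1* at 1.42, and *Gsto1* at -1.74. Of the amino acid response genes 6 of 10 were called higher and 0 lower, with *Trib3* at 1.84, *Psat1*, an enzyme of serine synthesis, at 1.23 and *Asns*, asparagine synthetase, at 0.63. Of the Nrf2 reference targets 4 of 8 were called higher, with *Hmox1* at 2.79, *Gstm1* at 2.53 and *Nqo1* at 1.87, and 1 lower, *Gsta3* at -2.11. In the same mice *Cdo1* was at -4.04, and *Cbs* at 1.38.

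Before birth, from E15.5 to P0, *Gsto1* rose by 5.33, *Dpep1*, a dipeptidase that splits cysteinylglycine, by 2.43 and *Slc1a1*, a carrier of glutamate and cysteine, by 1.97. NADPH genes had 4 of 7 called higher (median 0.95), where 19.7% of all genes were called. From P0 to P7, where 2.42% of all genes were called, *Dpep1* (-1.93) and *Slc1a1* (-1.79) fell again. The first of these steps used the arrays at E15.5, of which replicate 1 stood apart. Without it and E11.5 replicate 3, *Gsto1* rose by 4.67, *Dpep1* by 2.16 and *Slc1a1* by 2.33 (called), and 3 of 7 NADPH genes were called higher (median 0.75). Over all genes 3799 were then called, against 3911 with all arrays.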
